A study of Homo sapiens with 40 samples.

Results

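The AP-1 transcription factor family was followed through 8 of its genes, FOS, FOSB, FOSL1, FOSL2, JUN, JUNB, JUND and ATF3, which were taken by name as 8 of the 44584 gene names in the count table. Each name occurred as written, and all 8 passed the filter on low counts in every model. RNA was sequenced in 40 libraries that form 20 groups of 2. BT474, a breast cancer cell line with amplified HER2, was compared with BT474R, a single trastuzumab-resistant clone (clone 5) that came from BT474 grown with 10 µg/mL trastuzumab. Every culture was first starved of serum for 14 to 16 h, and each line gave a T0 group at the end of starvation. The other 9 groups of a line received fresh starvation medium with epidermal growth factor (EGF, 50 ng/mL), heregulin (HRG, 10 ng/mL) or water as vehicle for 1 h, 12 h or 24 h. EGF binds EGFR, HRG binds HER3 and HER4, and HER2 pairs with each of these receptors. Treatments were made in duplicate, and no source used here says more about how the duplicates were separated, so every p-value measures the spread between these libraries and that spread may be technical.

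AP-1 is a dimer of bZIP proteins, which join through a leucine zipper and touch DNA with a basic region. FOS proteins cannot pair with themselves and need a JUN partner, whereas JUN proteins can also pair with each other and with ATF proteins. FOS, FOSB, JUN, JUNB and ATF3 are textbook immediate early genes: growth factor signals that run through MAP kinases reach factors already bound at their promoters, and their short-lived RNA rises without new protein synthesis. In epithelial tumours AP-1 is best known for genes of growth, invasion and wound repair, and for carrying signals from EGFR and its relatives into the nucleus.

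The genes lie on 5 chromosomes (GRCh38, GENCODE v44). JUN (chr1:58776845-58784048, minus strand) and ATF3 (chr1:212565334-212620777, plus strand) are on chromosome 1, FOSL2 (chr2:28392448-28417317, plus strand) on chromosome 2, FOSL1 (chr11:65892049-65900573, minus strand) on chromosome 11 and FOS (chr14:75278826-75282230, plus strand) on chromosome 14. Chromosome 19 holds JUNB (chr19:12791486-12793315, plus strand), JUND (chr19:18279694-18281622, minus strand) and FOSB (chr19:45467995-45475179, plus strand). The reference transcripts of JUN, JUNB and JUND have 1 exon each, and those of the other 5 genes have 4.

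Of the genes that moved together at 1 h, promoter stretches are shown where a searched element was found, because MAP kinase signals are known to reach this family through such elements. They were taken from the 500 bases before each listed RefSeq start site (hg38) and are written 5′ to 3′ on the strand of the gene, with a match to a searched motif in capitals. The CArG box, the core of the serum response element that SRF binds, was searched by its consensus, the 8 letters TGACGTCA stand for the cyclic AMP response element, and TGACATCA is the variant known from the JUN promoter. Both strands were read. The FOS stretch (chr14:75278494-75278543) has a CArG box 314 to 305 bases before the start. The FOSB stretch (chr19:45467651-45467751) has a cyclic AMP response element 325 to 318 bases and a CArG box 274 to 265 bases before the start. The JUN stretch (chr1:58784087-58784134) has the variant 67 to 60 bases before the start, and the JUND stretch (chr19:18281795-18281842) has the cyclic AMP response element 200 to 193 bases before it. For ATF3 2 RefSeq starts were among the promoters searched, and other starts were not looked for. The stretch at the first (chr1:212565264-212565311) has the variant 123 to 116 bases before it. That at the second (chr1:212614518-212614548) has the cyclic AMP response element 497 to 490 bases before it. Whether transcription begins at either ATF3 start in these cells was not tested.
FOS promoter: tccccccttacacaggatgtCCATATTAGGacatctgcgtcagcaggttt
FOSB promoter: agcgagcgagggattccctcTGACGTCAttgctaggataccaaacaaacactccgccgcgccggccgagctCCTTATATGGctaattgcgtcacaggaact
JUN promoter: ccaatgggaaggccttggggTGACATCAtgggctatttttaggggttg
JUND promoter: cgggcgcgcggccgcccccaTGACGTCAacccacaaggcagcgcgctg
ATF3 promoter, first start: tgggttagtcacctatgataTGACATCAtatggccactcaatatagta
ATF3 promoter, second start: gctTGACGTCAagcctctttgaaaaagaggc

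Among all 35116 promoters of that length, 2.43% held a CArG box, 1.98% TGACGTCA, 3.27% TGACATCA and 7.36% the classical AP-1 site TGAGTCA. No match to TGAGTCA was found in the windows of these genes, the JUNB window held only a TATA box among the motifs, although JUNB rose at 1 h with both ligands in both lines, and the FOSL2 window held none of them. A TATA box (TATAAA, in 21.2% of all promoters) lay 33 to 28 bases before the FOS start, 30 to 25 before the FOSB start and 31 to 26 before the JUNB start. The same letters lay 230 to 225 bases before the second ATF3 start, outside the stretch printed. FOSL1 was not in the promoter table. TGACATCA was added to the search after the promoter letters had been seen, and a match describes letters only.

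Library totals ran from 16794594 to 33387936 counts, so 3 counts correspond to 0.0929 to 0.18 CPM (counts scaled to the size of the library, here with TMM over the 40 libraries). The luminal epithelial markers KRT8, KRT18, KRT19, EPCAM, CDH1 and ERBB2 were abundant in every library, with EPCAM the lowest at 170 CPM and median ERBB2 levels of 7740 CPM in BT474 and 9548 CPM in BT474R. GATA3, another luminal marker, was lower in BT474R (median 39.7 CPM) than in BT474 (457 CPM). The leukocyte markers PTPRC, CD3E and CD14 stayed at or below 0.149 CPM. Of the fibroblast markers COL1A1 was detected (medians 89.6 and 195 CPM), COL3A1 lay low (0.149 and 0.382 CPM, at most 0.745), and COL1A2 and PDGFRB stayed at or below 0.155 CPM. Of the endothelial markers VWF was detected (16 and 11.5 CPM) and PECAM1 stayed at or below 0.218 CPM. Of the basal markers TP63 was at medians of 5.91 and 1.49 CPM and KRT5 at 0.138 and 0.794 CPM (at most 2.55), while KRT14 and ACTA2 stayed at or below 0.28 CPM. In bulk RNA, fewer cells of a kind and less RNA per cell cannot be told apart. Exon sequence of HOOK2 outside its reference transcript lies antisense over 259 bases (14.2%) of the JUNB exon. The strand setting of the counting is not given in the sources used here, and whether JUNB holds antisense reads was not tested. HOOK2 as a whole gene was not called in any ligand comparison at 1 h. At 12 h it was called lower with HRG in BT474 (-0.27 ± 0.05, adjusted p = 0.00011), where JUNB was not called. ERCC1 spans FOSB on the opposite strand without sharing exon bases, and it was not called at 1 h either.

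**Figure D1:**
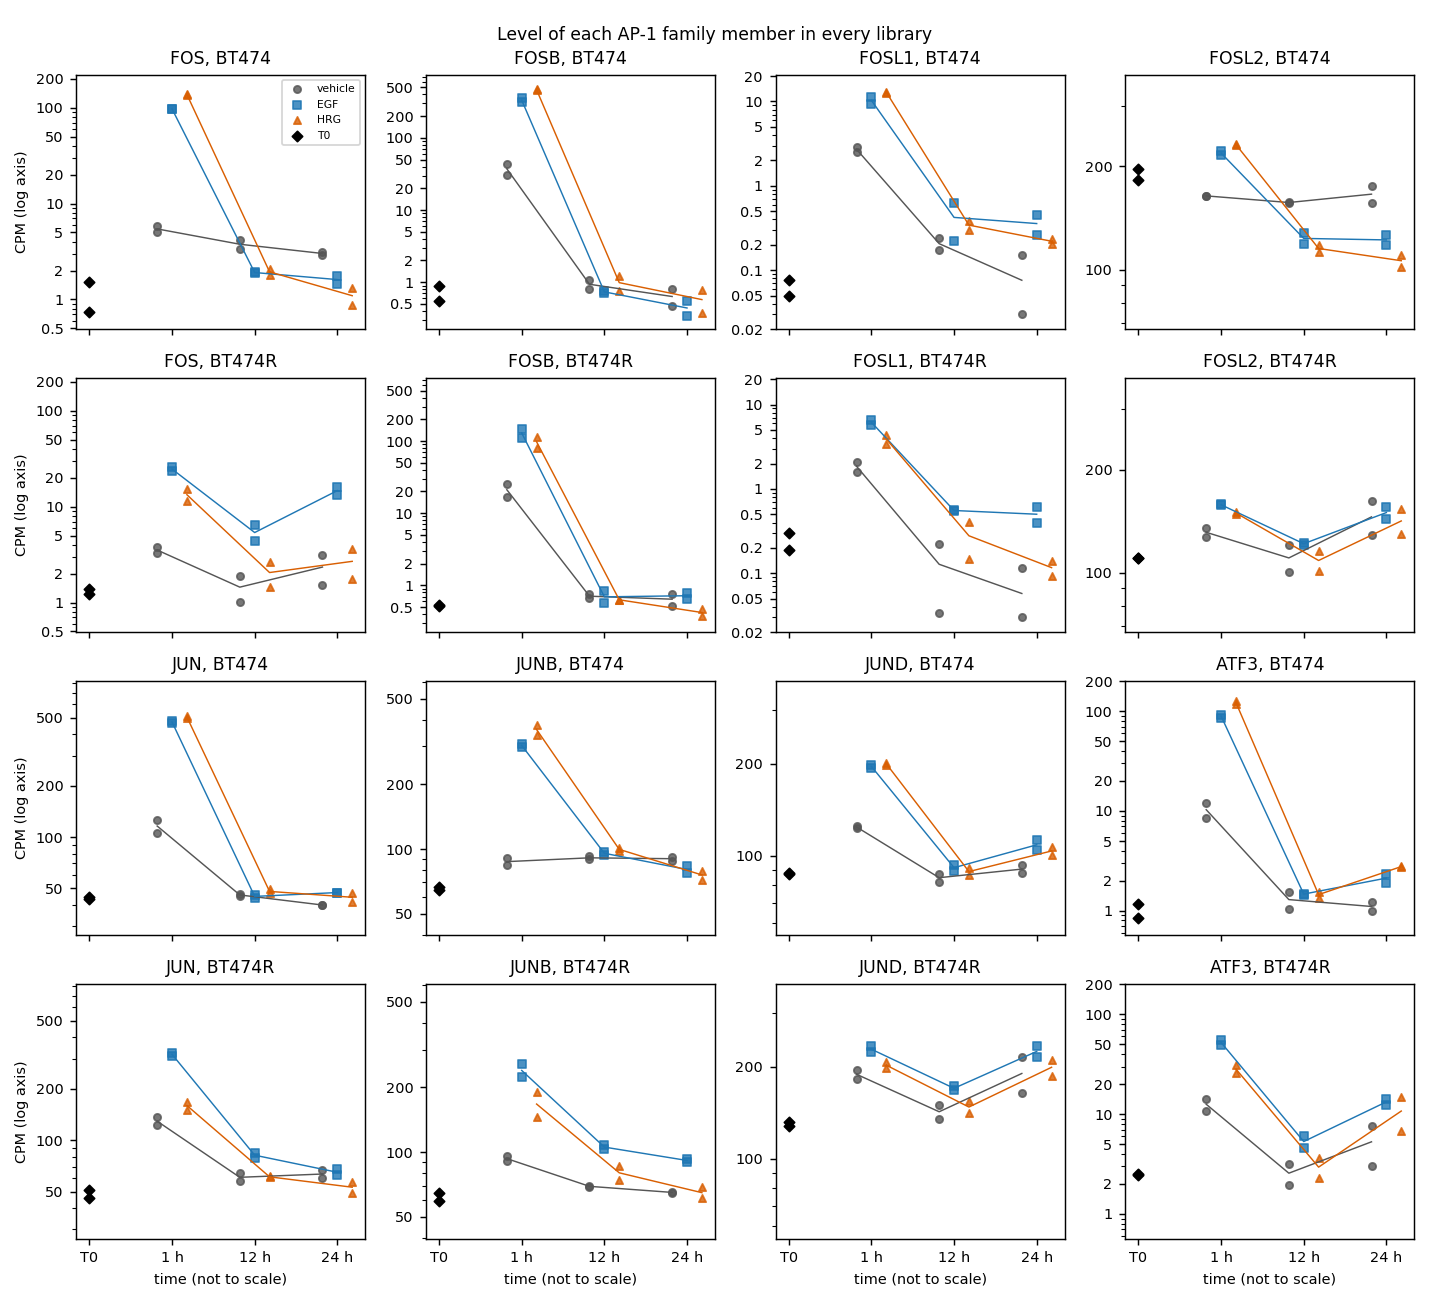
CPM of each gene in every library on log axes, with T0, 1 h, 12 h and 24 h set at equal distances. Points are libraries, lines join the means of 2 libraries, and libraries without a count are drawn at 0.03 CPM. FOS in BT474 stood at 96.7 CPM or more with either ligand at 1 h and at 5.88 CPM or less in every other BT474 library.

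The FOS subfamily answered both ligands within 1 h in BT474. FOS, the founding partner of JUN in AP-1, stood at 4.99 and 5.88 CPM in the vehicle libraries of that time, at 96.7 and 97.4 CPM with EGF and at 138 and 136 CPM with HRG. No treated library came near a vehicle library. The log2 fold change was 4.13 ± 0.09 (SE, n = 2 libraries per group, 17.5-fold) for EGF and 4.64 ± 0.09 (25-fold) for HRG, with adjusted p of 8.5e-30 and 8.5e-32 (edgeR quasi-likelihood F test, Benjamini-Hochberg over all genes tested, the test used throughout). FOSB, which makes a FOS-like partner with a strong activating tail, went from 43.9 and 30.7 CPM with vehicle to 314 and 351 CPM with EGF and to 472 and 455 CPM with HRG. Its log2 fold changes were 3.14 ± 0.08 and 3.63 ± 0.08.

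FOSL1, which encodes the Fra-1 protein of invasive breast cancer cells, was expressed at a low level. It stood at 2.52 and 2.9 CPM with vehicle, 9.41 and 11.2 CPM with EGF and 13 and 12.7 CPM with HRG, and rose by log2 1.90 ± 0.17 and 2.23 ± 0.17. FOSL2, which encodes Fra-2, was already at 164 CPM in both vehicle libraries and reached 216 and 221 CPM with EGF and 231 and 232 CPM with HRG. Its steps of 0.39 ± 0.05 and 0.49 ± 0.05 were the least of the family.

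The JUN subfamily rose as well. JUN, the strongest activator of the JUN proteins and a target of its own product, was at 127 and 106 CPM with vehicle, 464 and 480 CPM with EGF and 515 and 495 CPM with HRG. JUNB, a weaker activator that competes with JUN, was at 90.7 and 84.1 CPM with vehicle, 298 and 308 CPM with EGF and 379 and 341 CPM with HRG. JUND, the member known for steady expression in resting cells, went from 123 and 125 CPM to 198 and 194 CPM with EGF and to 201 and 199 CPM with HRG. The log2 fold changes for EGF and HRG were 2.00 ± 0.05 and 2.11 ± 0.05 for JUN, 1.77 ± 0.05 and 2.03 ± 0.05 for JUNB, and 0.64 ± 0.05 and 0.68 ± 0.05 for JUND.

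ATF3, a stress-induced bZIP factor that pairs with JUN proteins and often represses, stood at 12 and 8.57 CPM with vehicle, 86.1 and 92.5 CPM with EGF and 126 and 118 CPM with HRG. Its log2 fold changes of 3.10 ± 0.09 and 3.56 ± 0.09 lay between those of FOS and JUN. In BT474 at 1 h, 8 of 8 genes thus passed the test as higher with EGF, beside 1.65% of the 25146 genes tested, and 8 of 8 with HRG, beside 2.16%. The median log2 fold change of the 8 was 1.95 with EGF and 2.17 with HRG, against 0.001 and -0.007 over all genes tested.

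In BT474R fewer of the genes passed at 1 h. Its model had the larger common dispersion (0.003 against 0.00121 in BT474), so effects of equal size were harder to call in BT474R. FOS was at 3.81 and 3.25 CPM with vehicle, 23.6 and 25.8 CPM with EGF and 15.2 and 11.4 CPM with HRG. Treated and vehicle libraries stayed apart, and the log2 fold changes were 2.82 ± 0.25 and 1.94 ± 0.25. FOSB was at 16.9 and 25.4 CPM with vehicle, 110 and 149 CPM with EGF and 114 and 80.8 CPM with HRG, which gave 2.60 ± 0.16 and 2.20 ± 0.16. FOSL1 went from 1.61 and 2.11 CPM to 5.75 and 6.57 CPM with EGF (1.71 ± 0.24) and to 4.4 and 3.41 CPM with HRG. The HRG difference of FOSL1 in BT474R, 1.06 ± 0.25, missed the threshold (adjusted p = 0.16).

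JUN separated the ligands in BT474R. It stood at 122 and 136 CPM with vehicle and at 311 and 325 CPM with EGF, a rise of 1.30 ± 0.08. With HRG it reached only 168 and 151 CPM (0.31 ± 0.08, adjusted p = 0.22), above the vehicle libraries but not past the threshold. JUNB was at 90.7 and 96 CPM with vehicle, 224 and 256 CPM with EGF and 190 and 145 CPM with HRG, and both ligands raised it (1.36 ± 0.09 and 0.85 ± 0.09). ATF3 rose with EGF from 10.9 and 14.2 CPM to 49.8 and 54.7 CPM (2.04 ± 0.24), and with HRG it was at 30.9 and 25.6 CPM (1.16 ± 0.25, adjusted p = 0.062). FOSL2 and JUND differed from vehicle by 0.27 ± 0.09 each when EGF was given, and by 0.19 and 0.10 under HRG, and none of these passed.

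EGF thus raised 6 of 8 genes in BT474R at 1 h, beside 0.416% of the 24287 genes tested there, and HRG raised 3 of 8, beside 0.169%. The medians over the 8 genes were 1.54 with EGF and 0.95 with HRG, against -0.003 and 0.004 over all genes. The HRG count depended on the processing: 6 of 8 genes passed in a single model of both lines, without a filter on low counts, and in a model of the compared libraries alone, and 5 with a replicate block within each time point. Genes called higher over the whole table rose there as well, from 41 to 63 of 24641, 142 of 32768, 111 of 25827 and 57 of 24287.

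**Figure D2:**
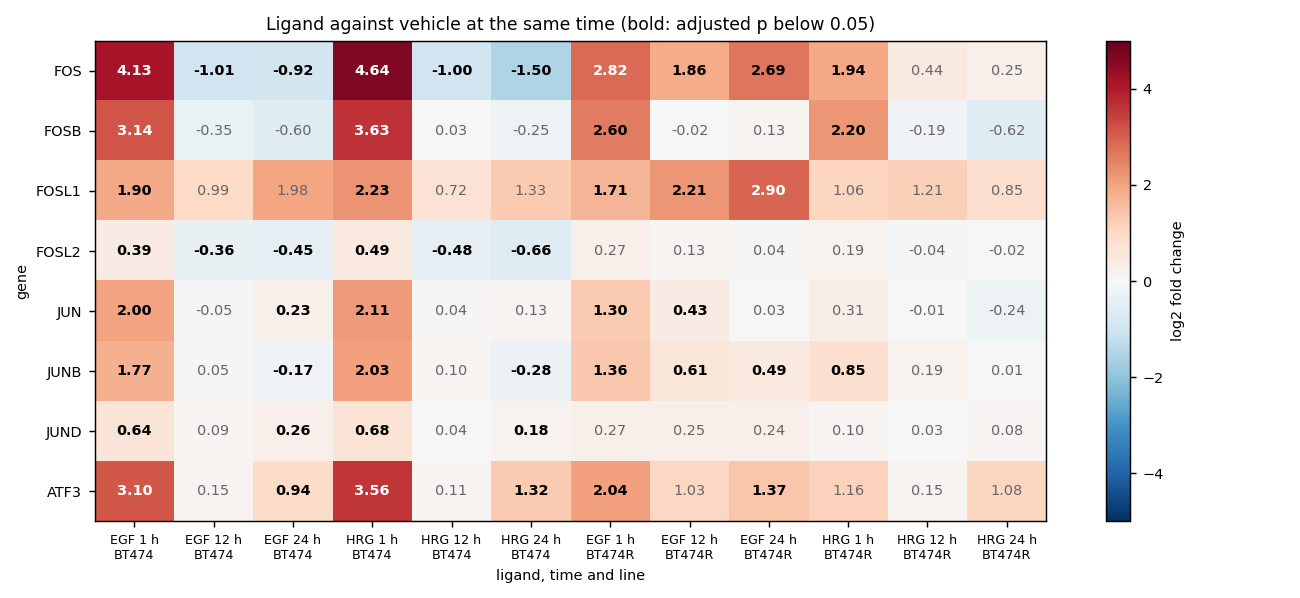
Log2 fold change of each gene (rows) for EGF or HRG against vehicle of the same time and line (columns), from the models of each line. Colour gives the size and sign, and bold numbers passed the test. In BT474 every 1 h cell is positive and bold, from 0.39 to 4.64, and FOS turns to between -1.50 and -0.92 at 12 h and 24 h, whereas in BT474R FOS with EGF stays between 1.86 and 2.82 at every time.

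The size of the 1 h response was compared between the lines as the ligand effect in BT474R minus that in BT474, in a model of all 40 libraries. For HRG, 6 of 8 genes had a smaller effect in BT474R, beside 0.544% of 24641 genes that differed in either direction. FOS differed by -2.72 ± 0.29 (adjusted p = 5.2e-08), ATF3 by -2.41 ± 0.28, JUN by -1.82 ± 0.10, FOSB by -1.45 ± 0.20, JUNB by -1.20 ± 0.11 and JUND by -0.59 ± 0.10. On the linear scale the HRG effect on FOS was 6.57-fold smaller in BT474R and that on JUN 3.53-fold smaller. FOSL1 (-1.19 ± 0.32) and FOSL2 (-0.31 ± 0.11) did not pass.

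For EGF at 1 h, 2 of 8 genes differed between the lines, beside 0.138% of all genes. JUN differed by -0.73 ± 0.10 (adjusted p = 3.5e-05) and FOS by -1.34 ± 0.28 (adjusted p = 0.028). The differences of ATF3 (-1.08 ± 0.27), FOSB (-0.57 ± 0.20), JUNB (-0.43 ± 0.11) and JUND (-0.39 ± 0.10) had unadjusted p below the threshold and failed the correction. The call of FOS rested on every library but EGF-BT474R replicate 2. It was lost without either EGF-BT474 library (-1.33 each time), without either vehicle library of BT474 (-1.23 and -1.45), without either vehicle library of BT474R (-1.23 and -1.46) and without EGF-BT474R replicate 1 (-1.27). Between 1 and 6 genes were called under the other settings tried.

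**Figure D3:**
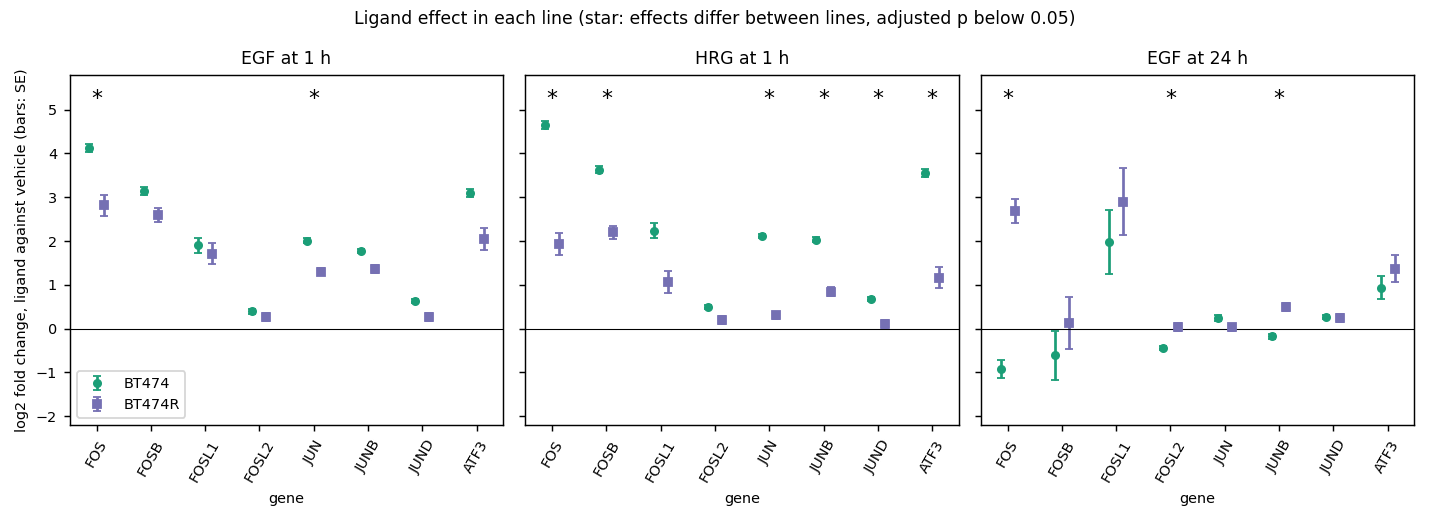
Log2 fold change against vehicle in BT474 (circles) and BT474R (squares) for EGF and HRG at 1 h and EGF at 24 h, with bars of 1 SE. A star marks a gene whose effect differed between the lines. With HRG at 1 h 6 genes carry a star and FOS is at 4.64 in BT474 and 1.94 in BT474R, and with EGF at 24 h FOS is at -0.92 in BT474 and 2.69 in BT474R.

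HRG and EGF were also set against each other within each line at 1 h. In BT474 HRG gave the higher level for 4 of 8 genes, FOS (0.51 ± 0.06), FOSB (0.49 ± 0.07), ATF3 (0.46 ± 0.07) and JUNB (0.26 ± 0.05), beside 0.139% of all genes called in either direction. These calls depended on the libraries in the model: 0 of 8 passed in a single model of both lines or with the compared libraries alone, at log2 differences of 0.25 to 0.51. Few genes of any kind passed there, 9 higher and 1 lower of 24641 in the model of both lines and 0 of 26238 with the compared libraries alone (1263 of them with an unadjusted p below the threshold). ATF3 lost its call without EGF replicate 1 (0.41), and JUNB without EGF replicate 1 (0.24) or HRG replicate 1 (0.18).

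In BT474R HRG was below EGF for JUN (-0.99 ± 0.08, 1.99-fold lower, adjusted p = 3.9e-07) and JUNB (-0.51 ± 0.09), 2 of 8 genes beside 0.0494% of all genes. JUNB alone was called in both lines, and whether the order of the ligands differed between the lines was not tested. JUNB lost its call without EGF replicate 1 (-0.59), EGF replicate 2 (-0.42) or HRG replicate 2 (-0.33). FOS and ATF3 each differed by -0.88 and failed the correction. Without a filter on low counts 5 of 8 genes passed, and 4 did so in the model of both lines or with the block within each time point.

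At 12 h the early rise was over in BT474. FOS had dropped below vehicle, at 1.89 and 1.92 CPM with EGF and 2.07 and 1.81 CPM with HRG against 4.21 and 3.32 CPM with vehicle, and it was 2.01-fold lower with each ligand (-1.01 ± 0.19 with EGF, and an SE of 0.18 with HRG). The FOS vehicle libraries were themselves above T0 (0.735 and 1.52 CPM), and the treated libraries were not below it. FOSL2 was at 119 and 128 CPM with EGF and 118 and 112 CPM with HRG, below the vehicle libraries at 156 and 158 CPM (-0.36 ± 0.05 and -0.48 ± 0.05). These were the 2 of 8 genes called with EGF, beside 16% of all genes, and the 2 of 8 called with HRG, beside 25.8%, which with HRG is close to the share of all genes.

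The change of effect itself was tested as the 12 h effect minus the 1 h effect. In BT474, 7 of 8 genes had a smaller effect at 12 h with EGF, beside 7.72% of all genes, and 7 of 8 with HRG, beside 14.2%. The drop was deepest for FOS (-5.14 ± 0.21 with EGF and -5.65 ± 0.21 with HRG), followed by FOSB (-3.49 ± 0.47 and -3.60 ± 0.45) and ATF3 (-2.95 ± 0.30 and -3.45 ± 0.30). JUN and JUNB lost between 1.72 and 2.07, FOSL2 0.76 and 0.96, and JUND 0.54 and 0.64. FOSL1, with 11 to 18 counts per group at 12 h, gave -0.91 ± 0.64 and -1.51 ± 0.64 and was not called.

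In BT474R the 12 h EGF effect was smaller than the 1 h effect for 3 of 8 genes, beside 4.43% of all genes: FOSB (-2.62 ± 0.62), JUN (-0.87 ± 0.11) and JUNB (-0.76 ± 0.13). For HRG only JUNB passed (-0.66 ± 0.13), 1 of 8 beside 0.992%. The FOSB call was lost without either 12 h vehicle library (-2.68 and -2.49) or EGF 12 h replicate 2 (-2.38). The HRG call of JUNB was lost without 1 h vehicle replicate 1 (-0.59), HRG 1 h replicate 1 (-0.42, a change of more than 1.5-fold), either 12 h vehicle library (-0.64 and -0.63) or HRG 12 h replicate 1 (-0.55). Up to 4 genes passed under other settings with HRG and up to 5 with EGF.

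Part of the family was still above vehicle with EGF in BT474R at 12 h, at lower levels than at 1 h. FOS was at 6.4 and 4.35 CPM against 1.02 and 1.88 CPM with vehicle (1.86 ± 0.34, 3.62-fold), JUN at 84.3 and 79 CPM against 57.3 and 63.8 CPM (0.43 ± 0.08), and JUNB at 108 and 103 CPM against 69.5 and 69.3 CPM (0.61 ± 0.10). In each case both EGF libraries lay above both vehicle libraries. FOSL1 was called too (2.21 ± 0.64), on 26 counts with EGF and 6 with vehicle, a ratio of 4.8 with a 95% interval of 1.93 to 14.3 (Clopper-Pearson, counting error only, reads without molecular identifiers). Its call was lost without vehicle replicate 2 (1.33) or either EGF library (2.21 and 2.20), and without vehicle replicate 1 the value rose to 3.85.

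These were 4 of 8 genes, beside 12% of all genes, and 7 passed in the model of the compared libraries alone, where calls over all genes rose too, to 2755 higher and 2421 lower of 24921. With HRG at 12 h in BT474R 0 of 8 genes were called by edgeR, none of them had an unadjusted p below the threshold, and 4.12% of all genes were called. DESeq2 also called 0, and 1 gene passed without a filter on low counts. HRG stood below EGF for FOS (-1.41 ± 0.31), JUN (-0.44 ± 0.08) and JUNB (-0.41 ± 0.09), 3 of 8 genes beside 1.42%. Each of these calls was lost without HRG replicate 1 (FOS -1.04, JUN -0.45 and JUNB -0.31) and without EGF replicate 1 (FOS -1.08, JUN -0.38 and JUNB -0.37), that of JUN also without HRG replicate 2 (-0.42) and that of JUNB without EGF replicate 2 (-0.45). In BT474 0 of 8 genes differed between the ligands at 12 h, with 1 unadjusted p below the threshold, 0 calls by DESeq2 and 2.17% of all genes called.

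At 24 h FOS with EGF gave opposite directions against vehicle in the lines. In BT474 it stood at 3.1 and 2.92 CPM with vehicle, 1.45 and 1.77 CPM with EGF (-0.92 ± 0.21) and 0.875 and 1.31 CPM with HRG (-1.50 ± 0.22, 2.84-fold lower). At T0 FOS in BT474 had stood at 0.735 and 1.52 CPM, below vehicle at 24 h and overlapping both ligand groups. In BT474R it stood at 1.54 and 3.15 CPM with vehicle, 13.3 and 16.1 CPM with EGF and 1.77 and 3.61 CPM with HRG. The EGF libraries were far above vehicle (2.69 ± 0.28, 6.43-fold, adjusted p = 3.8e-07), and the HRG libraries overlapped it (0.25 ± 0.36). The FOS level with EGF at 24 h in BT474R was also above that at 12 h in every library.

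FOSL2 was the second gene that fell late in BT474, from 176 and 156 CPM with vehicle to 126 and 118 CPM with EGF (-0.45 ± 0.05) and to 111 and 102 CPM with HRG (-0.66 ± 0.05). In BT474R it was at 129 and 162 CPM with vehicle, 144 and 156 CPM with EGF and 130 and 153 CPM with HRG, overlapping throughout. ATF3 rose in BT474 from 1.22 and 0.987 CPM to 1.9 and 2.35 CPM with EGF (0.94 ± 0.27) and 2.76 and 2.79 CPM with HRG (1.32 ± 0.24). In BT474R it rose with EGF from 3.04 and 7.52 CPM to 12.5 and 14.1 CPM (1.37 ± 0.31), and with HRG it was at 6.79 and 14.7 CPM (1.08 ± 0.32, adjusted p = 0.074). Replicate 2 was the higher with vehicle and with HRG, and ATF3 was called for HRG with a replicate block (1.07, adjusted p = 0.035) and with a block within each time point (1.05, adjusted p = 0.0043). The ATF3 vehicle libraries of BT474R stood far apart: without vehicle replicate 1 the EGF value was 0.82 and no longer called, and without vehicle replicate 2 it was 2.14.

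Among the JUN genes the 24 h effects were small. In BT474 JUND rose with EGF (0.26 ± 0.05) and HRG (0.18 ± 0.05), JUNB fell with EGF (-0.17 ± 0.05) and HRG (-0.28 ± 0.05), and JUN rose with EGF (0.23 ± 0.07). In BT474R JUNB rose with EGF from 64.8 and 65.2 CPM to 90.4 and 92.7 CPM (0.49 ± 0.10). FOSL1 had 24 counts with EGF and 3 with vehicle in BT474R, a ratio of 7.96 (95% interval 2.42 to 41.3), and was called at 2.90 ± 0.77. That call was lost without vehicle replicate 2 (2.09) or EGF replicate 2 (2.55). All 3 vehicle counts came from replicate 1, so without it the fitted value of 6.64 was set by the prior count, and the 0 counts of vehicle replicate 2 allow up to 0.141 CPM.

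In all, 6 of 8 genes were called with EGF at 24 h in BT474, beside 16.4% of all genes, and 5 of 8 with HRG, beside 24.1%. In BT474R 4 of 8 were called with EGF, beside 17.3%, and 0 of 8 with HRG, beside 2.78%, where 2 had an unadjusted p below the threshold and DESeq2 also called 0. The HRG libraries of that group stood further apart than those of any other group (median chi-square per gene between the 2 libraries of 2.56), followed by their vehicle libraries (1.58), against 0.595 to 1.27 in the other 18 groups. The EGF count in BT474 was 3 in the model of both lines. In the model of BT474 alone, JUN lost its EGF call without vehicle replicate 2 (0.22). ATF3 lost it without vehicle replicate 2 (0.77) or EGF replicate 2 (0.78), and JUNB without vehicle replicate 2 (-0.15) or EGF replicate 2 (-0.13). The HRG call of JUND was lost without vehicle replicate 2 (0.14) or HRG replicate 1 (0.13). The HRG count in BT474R was 1 in the model of both lines and with either block, and 2 without a filter.

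Late ligand effects were then compared between the lines. With EGF at 12 h the effect was higher in BT474R for 4 of 8 genes, beside 1.96% of all genes: FOS (2.85 ± 0.42), JUNB (0.54 ± 0.12), FOSL2 (0.48 ± 0.11) and JUN (0.46 ± 0.11). With EGF at 24 h it was higher for FOS (3.60 ± 0.40, adjusted p = 7e-08), JUNB (0.66 ± 0.12) and FOSL2 (0.49 ± 0.11), 3 of 8 beside 4.01%. The FOS difference at 24 h was 12.2-fold, with each effect taken against vehicle, whose FOS level in BT474 was itself above T0. With HRG FOSL2 alone differed at 12 h (0.42 ± 0.11), 1 of 8 beside 4.07%. At 24 h FOS (1.72 ± 0.48) and FOSL2 (0.61 ± 0.11) were higher in BT474R and JUN lower (-0.41 ± 0.12), 3 of 8 beside 3.33%.

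Several of these calls depended on single libraries, at times with little change in the size of the difference. FOS with EGF at 12 h and 24 h, JUNB with EGF at 24 h and FOSL2 with HRG at 24 h kept their calls without any 1 library. At 12 h with EGF, JUN and FOSL2 lost their calls without either BT474 vehicle library (JUN 0.43 and 0.47, FOSL2 0.48 and 0.48), without EGF-BT474 replicate 1 (0.43 and 0.43), without BT474R vehicle replicate 1 (0.37 and 0.35) and without EGF-BT474R replicate 1 (0.41 and 0.47), and JUNB lost its call without the last of these (0.50). FOSL2 with EGF at 24 h lost it without vehicle replicate 1 of BT474 (0.38) or of BT474R (0.33) or EGF-BT474R replicate 2 (0.43). FOSL2 with HRG at 12 h lost it without either BT474 vehicle library (0.43 and 0.43), HRG-BT474 replicate 2 (0.38), BT474R vehicle replicate 1 (0.30) or HRG-BT474R replicate 2 (0.32). At 24 h with HRG, FOS lost its call without either BT474 vehicle library (1.66 and 1.77), HRG-BT474 replicate 1 (1.44), BT474R vehicle replicate 1 (1.25) or HRG-BT474R replicate 2 (1.12, a change of more than 1.5-fold). JUN lost its call there without either BT474 vehicle library (-0.44 and -0.40), HRG-BT474 replicate 1 (-0.31), BT474R vehicle replicate 2 (-0.33) or HRG-BT474R replicate 1 (-0.30), and the 24 h HRG count was 0 with the compared libraries alone, where 23 genes were higher and 62 lower of 25348.

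Set against each other at 24 h, HRG was below EGF in BT474R for FOS (-2.44 ± 0.28, 5.41-fold lower) and JUNB (-0.48 ± 0.10), 2 of 8 genes beside 5.18% of all genes. In a model of the compared libraries alone 0 of 8 passed, as did 0 of all 25183 genes (2122 with an unadjusted p below the threshold), and without a filter 4 did, beside 547 higher and 1125 lower of 32768. In BT474 HRG was below EGF for FOSL2 alone (-0.21 ± 0.05), 1 of 8 beside 0.768%. That call was lost without EGF replicate 1 (-0.18) or HRG replicate 2 (-0.15), in the model of both lines and with the compared libraries alone.

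With vehicle at 1 h the family also differed from T0, so that the 1 h vehicle level is not the T0 level. The change of medium, the water and the longer starvation came together, and which of them mattered was not tested. In BT474 FOSB was at 0.541 and 0.88 CPM at T0 and at 43.9 and 30.7 CPM with vehicle at 1 h (5.75 ± 0.20, 53.8-fold). FOS went from 0.735 and 1.52 CPM to 4.99 and 5.88 CPM (2.34 ± 0.20), JUN from 43.3 and 44.4 CPM to 127 and 106 CPM (1.42 ± 0.06) and ATF3 from 0.851 and 1.17 CPM to 12 and 8.57 CPM (3.37 ± 0.19). FOSL1 had 3 counts at T0 and 124 with vehicle, a ratio of 41.9 (95% interval 14 to 206). JUND (0.52 ± 0.05) and JUNB (0.43 ± 0.06) rose, and FOSL2 fell from 196 and 182 CPM to 164 CPM in both libraries (-0.20 ± 0.05). In all 8 of 8 genes changed, 7 of them upwards, beside 6.61% of all genes called in either direction.

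In BT474R 6 of 8 genes rose with vehicle at 1 h, beside 2.24% of all genes: FOSB (5.33 ± 0.33, from 0.54 and 0.515 CPM to 16.9 and 25.4 CPM), FOSL1 (2.96 ± 0.46), ATF3 (2.34 ± 0.36), JUN (1.42 ± 0.08), JUNB (0.59 ± 0.10) and JUND (0.54 ± 0.09). FOS was at 1.38 and 1.22 CPM at T0 and 3.81 and 3.25 CPM with vehicle (1.44 ± 0.39, adjusted p = 0.061), apart in every library but short of the threshold. JUNB lost its call without T0 replicate 2 (0.53). In BT474 the FOSL2 call was lost without T0 replicate 1 (-0.16) or either vehicle library (-0.20 each time).

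Most of the vehicle response had gone by 12 h. In BT474 FOS was still above T0 at 12 h (1.80 ± 0.22) and 24 h (1.47 ± 0.23), JUNB was higher by 0.47 ± 0.05 and 0.46 ± 0.06 and FOSL2 lower by -0.28 ± 0.05 and -0.19 ± 0.05. These were 3 of 8 genes at 12 h, beside 6.41% of all genes, and 3 of 8 at 24 h, beside 11.4%. The 24 h call of FOSL2 was lost without T0 replicate 1 (-0.13) or vehicle replicate 2 (-0.10, a change of more than 1.5-fold). In BT474R 0 of 8 genes were called at 12 h, beside 1.13%, with 1 unadjusted p below the threshold, that of JUN, and 1 gene called by DESeq2.

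At 24 h in BT474R FOSL2 (0.41 ± 0.10), JUN (0.39 ± 0.09) and JUND (0.56 ± 0.09) were above T0, 3 of 8 beside 13.7% of all genes. The vehicle libraries of that group were 129 and 162 CPM for FOSL2 and 165 and 216 CPM for JUND, with replicate 2 the higher each time. Without vehicle replicate 2 FOSL2 was at 0.23 and JUN at 0.30, both no longer called, and JUND at 0.34, still called. JUN also lost its call without T0 replicate 2 (0.33), and FOSL2 without T0 replicate 1 (0.40). Without a filter on low counts 5 of 8 genes passed.

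At T0 the lines differed in 3 of 8 genes, beside 46.9% of 24641 genes, so the family was not set apart from other genes by this count. JUND stood at 87.1 and 87.8 CPM in BT474 and at 129 and 132 CPM in BT474R (0.58 ± 0.08, 1.49-fold, adjusted p = 7.9e-08). FOSL2 stood at 196 and 182 CPM in BT474 and at 110 and 111 CPM in BT474R (-0.78 ± 0.08, 1.71-fold lower). ATF3 stood at 0.851 and 1.17 CPM in BT474 and 2.52 and 2.48 CPM in BT474R (1.32 ± 0.51, adjusted p = 0.03), and its call was lost without any 1 of the 4 libraries (1.04, 1.52, 1.28 and 1.29). FOS (0.25 ± 0.46), FOSB (-0.39 ± 0.76), JUN (0.14 ± 0.08) and JUNB (-0.08 ± 0.09) did not pass, nor did FOSL1 (1.79 ± 0.95) on 3 and 9 counts.

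To compare the members with each other, CPM was divided by the length of the reference transcript in kb, which runs from 1.702 kb for FOSL1 to 6.713 kb for FOSL2. At T0 the summed level of the 8 genes was 124 and 124 CPM per kb in BT474 and 136 and 134 CPM per kb in BT474R. JUND held 36.5% and 36.6% of it in the BT474 libraries and 48.8% and 51.2% in the BT474R libraries, followed by JUNB, FOSL2 (in BT474 23.6% and 21.8%, in BT474R 12% and 12.3%) and JUN. FOS, FOSB, FOSL1 and ATF3 each held less than 1%.

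At 1 h the sum was 198 and 185 CPM per kb with vehicle in BT474, 619 and 643 with EGF and 767 and 729 with HRG. In BT474R it was 214 and 233 with vehicle, 427 and 468 with EGF and 341 and 292 with HRG, so that HRG stood above EGF in BT474 and below it in BT474R in every library. JUNB and JUN led the order in BT474 with HRG (197 and 155 CPM per kb on average), with FOSB at 123, JUND at 104, FOS at 65.1 and ATF3 at 62.8 CPM per kb. FOS and ATF3 were close neighbours, with 8.58% and 8.84% of the sum for FOS and 8.46% and 8.33% for ATF3. In BT474R with HRG JUND (105 CPM per kb) and JUNB (91.5) led, then JUN (49), FOSB (25.8), FOSL2 (22.3), ATF3 (14.6) and FOS (6.33). The shares of FOSB (8.86% and 7.32%) and FOSL2 (6.57% and 7.56%) overlapped there. In BT474 FOSB took 16.3% and 16.5% of the sum with HRG.

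By 12 h the BT474 sum was back at 131 to 137 CPM per kb in every library, treated or not. In BT474R it was 142 and 156 CPM per kb with vehicle, 197 and 193 with EGF and 150 and 166 with HRG at 12 h. At 24 h it was 161 and 198 with vehicle, 215 and 231 with EGF and 169 and 197 with HRG. The EGF libraries were above the vehicle libraries at both late times and the HRG libraries overlapped them. No test was made on the sum.

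**Figure D4:**
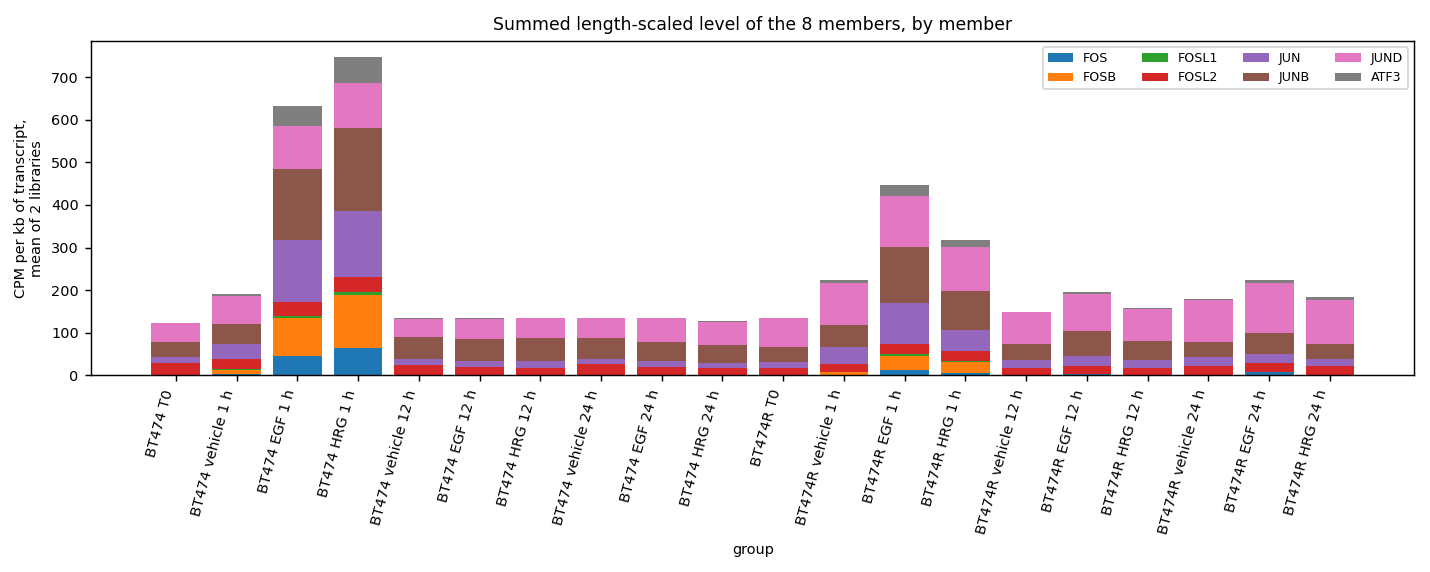
Mean CPM per kb of transcript of the 8 genes stacked in each of the 20 groups, with n = 2 libraries per bar and no error drawn. The bars are highest with HRG and EGF at 1 h in BT474. With HRG at 1 h JUND has about the same level in BT474R (105 CPM per kb) as in BT474 (104), although the whole BT474R bar is lower.

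Beside the family, 3 further gene lists were counted, chosen with earlier results of these data known. Of the 23 bZIP partners and relatives, 22 were tested in BT474 and 23 in BT474R. At 1 h EGF raised 6 and HRG 6 of 22 in BT474, beside 1.65% and 2.16% of all genes, and each ligand raised 1 of 23 in BT474R, beside 0.416% and 0.169%, and none fell. MAFF, a small MAF protein that lacks an activating domain, was the gene that rose in BT474R and led in BT474. It stood at 9.11 and 7.4 CPM with vehicle, 34.5 and 35.9 CPM with EGF and 44.4 and 42.4 CPM with HRG in BT474 (2.08 ± 0.11 and 2.39 ± 0.11), and in BT474R at 21.4 and 21.7 CPM, 45.7 and 51.4 CPM and 38.6 and 34.1 CPM (1.17 ± 0.14 and 0.76 ± 0.14).

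MAFF was still raised at 12 h and 24 h by both ligands in both lines, up to 1.96 ± 0.15 with EGF at 24 h in BT474R. At 24 h EGF raised 7 and lowered 3 of 22 list genes in BT474, beside 16.4% of all genes called in either direction, and raised 10 and lowered 1 of 23 in BT474R, beside 17.3%. HRG raised 8 and lowered 3 in BT474, beside 24.1%, and raised 2 and lowered 0 in BT474R, beside 2.78%. MAF, a large MAF factor, fell with both ligands at 12 h and 24 h in BT474 by 1.11 to 1.55 on the log2 scale and at 12 h in BT474R by 1.06 with EGF and 1.28 with HRG, and it was not called there at 24 h (-0.21 and -0.37). CEBPB, a C/EBP family partner, rose at 24 h in BT474 with EGF (0.50 ± 0.07) and HRG (0.52 ± 0.07) and in BT474R with EGF (0.77 ± 0.10), while HRG there gave 0.35 ± 0.11 and missed the threshold (adjusted p = 0.087).

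The list of inputs to FOS and JUN transcription held 26 receptors, kinases and promoter factors, all tested. At 1 h SRF, the protein that binds the CArG box printed above, rose in BT474 from 78.1 and 71.8 CPM to 142 and 143 CPM with EGF (0.90 ± 0.05) and 163 and 162 CPM with HRG (1.11 ± 0.05). In BT474R it went from 67 and 70.3 CPM to 89.1 and 90 CPM with EGF (0.38 ± 0.07). EGF and HRG each raised 2 of 26 in BT474 at 1 h, beside 1.65% and 2.16% of all genes, and 1 and 0 of 26 in BT474R, beside 0.416% and 0.169%. At 24 h EGF raised 5 and lowered 4 in BT474, beside 16.4% called in either direction, and raised 7 and lowered 2 in BT474R, beside 17.3%. HRG raised 6 and lowered 4 in BT474, beside 24.1%, and raised 2 and lowered 1 in BT474R, beside 2.78%. ELK3, a partner of SRF, rose with EGF at 24 h in BT474R by 1.03 ± 0.12, and ERBB4, a receptor of HRG, fell at 12 h and 24 h with both ligands in both lines, by 0.63 to 1.53 on the log2 scale.

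Of 30 textbook AP-1 target genes, 23 were tested in each line. At 1 h EGF raised 4 and HRG 6 of them in BT474, and 2 and 1 in BT474R, beside the same shares of all genes as above. At 12 h the counts were 12 with EGF and 13 with HRG in BT474, beside 16% and 25.8% of all genes called in either direction, and 13 and 5 in BT474R, beside 12% and 4.12%, with none lower. At 24 h 11 rose and 2 fell with either ligand in BT474, beside 16.4% with EGF and 24.1% with HRG. In BT474R 15 rose and 0 fell with EGF, beside 17.3%, and 5 rose and 2 fell with HRG, beside 2.78%. The median log2 fold change of the list at 24 h was 0.60 with EGF and 0.62 with HRG in BT474, against -0.02 over all genes for each, and 1.24 with EGF and 0.17 with HRG in BT474R, against -0.01 and 0.01. The members of this list are known from other cell types, and no binding was measured here.

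AREG, an EGFR ligand, was already higher at 1 h in BT474, from 5.26 and 3.82 CPM with vehicle to 21 and 23.3 CPM with EGF and 36.9 and 38.2 CPM with HRG at 1 h (2.27 ± 0.12 and 3.04 ± 0.11). KRT16, a keratin of activated epidermis, was up at 12 h in BT474 (EGF 2.09 ± 0.26, HRG 3.02 ± 0.23) and in BT474R (EGF 3.51 ± 0.20, HRG 2.24 ± 0.22). S100A9, a calcium-binding protein of inflamed epithelium, rose in BT474R at 24 h from 2.31 and 2.82 CPM to 21.1 and 20.1 CPM with EGF (3.01 ± 0.14) and to 9.31 and 8.25 CPM with HRG (1.80 ± 0.15). VIM, a mesenchymal filament protein, fell in BT474 at 24 h (-0.29 for EGF, -0.67 for HRG), but it rose there with HRG at 1 h (0.28 ± 0.07) and in BT474R with EGF at 12 h (0.71 ± 0.10).

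The pattern of each gene over the 20 group means was compared with that of 13327 genes by Pearson correlation of mean log2 CPM, as a description over groups that share the ligands, times and lines. Closest to FOS were IER2 (r = 0.956), MCL1 and KLF6. Closest to FOSB were EGR4 (0.980), PPP1R15A and NR4A1, and closest to FOSL1 were EGR4 (0.963), KLF6 and FOSB itself. JUN was nearest to KLF6 (0.978), NR4A1 and NR4A3, JUNB to IER2 (0.982), CSRNP1 and ZFP36, and ATF3 to PPM1D (0.964), PTP4A1 and KLF6. JUND was nearest to NR4A2 (0.962), BTG1 and MAPK1IP1L.

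FOSL2 stood somewhat apart, with UBTD2 (0.879), TTC21B and CCDC32 nearest and 0.741 or less with every other member. JUND correlated with ATF3 at 0.832 and with FOSL2 at 0.244, the lowest value within the family. FOSB, FOSL1 and JUN correlated with each other at 0.937 to 0.954.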

How the data were processed

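Per the labels and the study's methods, the authors checked the reads with FastQC and MultiQC, trimmed them with Trim Galore 0.6.6, aligned them to GRCh38.p13 and deposited raw counts of reads per gene from featureCounts, with no normalization and no pooling of replicates. The annotation release and the strand setting are not given in the sources used here. Samples were grouped by the line, treatment and time in their labels.

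Here the counts were tested with edgeR 4.0.16 in R 4.3.3 (glmQLFit and glmQLFTest, TMM scaling, group means, no replicate block). Each line was modelled alone with its 20 libraries (25146 genes for BT474 and 24287 for BT474R), and 1 model of 40 libraries (24641 genes) compared the lines. A gene entered a model when 50% or more of its libraries held a count of 1 or higher. A gene is called when its p, adjusted by Benjamini-Hochberg over all genes of the model, is below 0.05. The SE of a log2 fold change is its size over the square root of F. The study tested each ligand against its vehicle, per line, in DESeq2, which is run here as an alternative (1.42.0, without shrinkage), and the other contrasts are choices of the present work. The family members, the gene lists and the tests were chosen with earlier results of these data known. Every member is named, list genes are, per comparison, up to 2 called genes with the largest rise and up to 2 with the largest fall at a mean of 1 CPM or more (fewer were printed), and likeness was searched among genes at that level, with a prior count of 2. Coordinates and lengths are from GENCODE v44, promoter letters from RefSeq. The edgeR test was tried first on simulated counts for BT474, for EGF against vehicle at 1 h alone, and the other comparisons were not simulated. The alternatives were DESeq2, its size factors in edgeR, filterByExpr, no filter, the compared libraries alone, 1 model of both lines, replicate blocks and leaving out each library, where the model of both lines kept its trended dispersion.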

Additional observations from a re-analysis of the deposited data

Results flagged for a closer look

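Each value here is a difference between ligand effects that passed its own test, first between the lines (BT474R minus BT474). At 1 h the EGF effect differed by -0.73 for JUN and -1.34 for FOS, and the HRG effect by -2.72 for FOS, -2.41 for ATF3, -1.82 for JUN, -1.45 for FOSB, -1.20 for JUNB and -0.59 for JUND. At 12 h the EGF effect differed by 2.85 for FOS, 0.54 for JUNB, 0.48 for FOSL2 and 0.46 for JUN, and the HRG effect by 0.42 for FOSL2. At 24 h the EGF effect differed by 3.60 for FOS, 0.66 for JUNB and 0.49 for FOSL2, and the HRG effect by 1.72 for FOS, 0.61 for FOSL2 and -0.41 for JUN.

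Between 12 h and 1 h within BT474 the EGF effect differed by -5.14 for FOS, -3.49 for FOSB, -2.95 for ATF3, -2.05 for JUN, -1.72 for JUNB, -0.76 for FOSL2 and -0.54 for JUND. The HRG effect differed there by -5.65 for FOS, -3.60 for FOSB, -3.45 for ATF3, -2.07 for JUN, -1.93 for JUNB, -0.96 for FOSL2 and -0.64 for JUND. Within BT474R the EGF effect differed by -2.62 for FOSB, -0.87 for JUN and -0.76 for JUNB, and the HRG effect by -0.66 for JUNB.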

How the results depend on the processing

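Of the members' log2 fold changes 123 were called and 157 were not, and no called one turned its sign under any alternative. DESeq2 lost 2 calls and gained 6, its size factors lost 1 and gained 1, filterByExpr lost 2, the model without a filter gained 37, the compared libraries alone lost 14 and gained 26, and 1 model of both lines lost 11 of 101 and gained 14 of 123. Leaving out 1 library lost 87 of 640 and gained 16 of 800. The cause was not tested. No source used here ties same-numbered samples together, and they did not deviate together throughout: the correlations ran from -0.093 to 0.385, with values above 0.1 at 24 h alone (0.134 to 0.263 between the 3 treatments in BT474, and in BT474R 0.385 for HRG with vehicle, 0.236 for HRG with EGF and 0.017 for EGF with vehicle). The replicate block (additive) lost no call and gained 7, the block within each time point 23.

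Without a filter, 6 members were called for the EGF effect between lines at 1 h (2 in the report), 2 for the HRG effect between lines at 12 h (1), and in BT474R 6 for HRG at 1 h (3), 1 for HRG at 12 h (0), 2 for HRG at 24 h (0), 5, 5 and 4 for HRG against EGF at the 3 times (2, 3 and 2), 1 and 5 for vehicle against T0 at 12 h (0) and 24 h (3), and 5 and 4 for the 12 h against the 1 h effect of EGF (3) and HRG (1). HRG against EGF then gave 19 calls in all (12). With the compared libraries alone the counts were 5 and 2 for the same line differences, 0 for the HRG effect between lines at 24 h (3), 0 for HRG against EGF in BT474 at 1 h (4) and 24 h (1), and in BT474R 6 for HRG at 1 h, 7 for EGF at 12 h (4), 1 and 0 for HRG against EGF at 12 h and 24 h, 1 for vehicle at 12 h, and 5 and 4 for the 12 h against the 1 h effect of EGF and HRG. HRG against EGF then gave 3 in all. One model of both lines gave 3 for EGF at 24 h in BT474 (6), 0 for HRG against EGF in BT474 at 1 h and 24 h, and in BT474R 6 for HRG at 1 h, 1 for HRG at 24 h, 4 for HRG against EGF at 1 h, 1 for vehicle at 12 h and 2 for the HRG effect at 12 h against 1 h. DESeq2 gave 1 and 2 for the EGF effect between lines at 1 h and the HRG effect at 12 h, 1 for vehicle at 12 h in BT474R and 2 for the HRG effect at 12 h against 1 h there, and filterByExpr gave 1 for the EGF effect between lines at 1 h. The replicate block gave 1 for HRG at 24 h in BT474R. The replicate block within each time point gave 4 and 2 for those line differences, and in BT474R 5 for HRG at 1 h, 1 for HRG at 24 h, 4 for HRG against EGF at 1 h, 1 for vehicle at 12 h and 3 for the HRG effect at 12 h against 1 h.

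With 1 library left out the counts ran from 1 to 2 for the EGF effect between lines at 1 h and from 1 to 4 at 12 h, from 0 to 2 for the HRG effect between lines at 12 h and from 1 to 3 at 24 h. For HRG against EGF they ran from 2 to 4 at 1 h and from 0 to 1 at 24 h in BT474, and in BT474R from 1 to 2 after 1 h, 0 to 2 after 12 h and 2 to 4 after 24 h. In BT474R they ran from 0 to 2 for HRG at 24 h, from 1 to 4 for vehicle against T0 at 24 h and from 0 to 2 for the HRG effect at 12 h against 1 h. With 2 libraries per group, leaving 1 out assumes that the lone library varies like the other groups. At 3 to 26 counts per group, FOSL1 could not show late changes of modest size.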
